A study of Bos taurus with 8 samples.

Results

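Internal coding exon windows are the consecutive 3 kb stretches of the bovine genome that lie inside a gene, away from both of its ends, and that hold at least part of a protein-coding exon. They were chosen by annotation alone. Genes on chromosomes 1 to 29 that spanned 5 or more windows were taken, the first and the last window of each gene were left out, and a window was kept where the annotation gave it a CDS (coding sequence) number. This gave 76939 windows of the 902984 in the table, or 9.19% of the 837275 windows on chromosomes 1 to 29. They lay in 11267 genes, with a median of 5 windows per gene and a highest number of 95. The median CDS number was 7 and the highest was 310. The annotation gave each window a single CDS number, which was read here as that of the leftmost coding exon in the window. The files do not define it. Among genes with 3 or more coding windows, the first coding window of 95.5% of plus-strand genes had CDS number 1, and the rightmost coding window of 77% of minus-strand genes did. Reads were available from MIRA-Seq of un-treated dermal fibroblasts at passage 5, cultured from shoulder skin of 4 Holstein and 4 Angus heifers of the same age, with 1 culture and 1 library per animal. No gene was deleted and no agent was added in any of the 8 cultures. Breed was the only difference that the labels gave between the groups, and calves of these breeds are typically also reared differently, so that breed and early rearing cannot be told apart.

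In mammals, DNA methylation is placed on the cytosine of CpG dinucleotides by the DNA methyltransferases. CpG-rich promoters are mostly kept free of it, whereas the bodies of transcribed genes carry it, and exons usually carry more of it than the introns between them. Coding exons are also richer in CpG than introns. MIRA-Seq captures methylated DNA fragments with a pair of methyl-CpG-binding proteins (MBD2b and MBD3L1) and counts the captured fragments. A window can therefore gain reads by holding more CpG or by having more of its CpG methylated, and in these libraries both cannot be told apart, since the number of CpG per window was not measured here. No uncaptured DNA was counted here either, so other reasons for a difference in reads between animals were not tested. Levels are given as CPM, the reads of a window divided by the reads in all windows of the library and scaled to a common total.

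The 8 libraries held 18691111 to 35525554 reads in windows, so that 1 read was worth 0.0281 to 0.0535 CPM. A count of 0 in a window allowed up to 0.0844 to 0.161 CPM, a limit that covers counting error only. Internal coding windows took 5.54% to 9.65% of the reads and had a median of 6 to 20 reads per window. Holstein 1 and Angus 3 stood apart before any comparison was made. They had the lowest shares of reads in internal coding windows (6.45% and 5.54%) and the lowest shares of reads on chromosomes 1 to 29 (78.3% and 72.5%, against 81.5% to 86.7% in the other 6 libraries). Of the 76939 windows, 43 had no read in any library, 46533 did not reach 1 CPM in any library and 14811 reached it in all 8.

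Internal coding windows carried more reads on average than the other internal windows of the same genes. Mean CPM per window was 0.838, 1.19, 1.10 and 1.25 in Holstein 1 to 4, against 1.01, 1.10, 0.720 and 1.19 for Angus 1 to 4. The internal windows of these genes without a coding exon (195406 windows, here called intron windows although some can hold untranslated exons) had 0.646, 0.852, 0.765 and 0.836 in the same Holstein libraries, against 0.785, 0.766, 0.569 and 0.775 for Angus. Coding windows were thus the higher class in each of the 8 libraries, by 1.27 to 1.54 times. The mean was 1.05 ± 0.185 CPM (SD, n = 8) for coding windows and 0.749 ± 0.0953 CPM for intron windows, a difference of 0.300 ± 0.0999 CPM (exact two-sided sign-flip permutation test over the 8 libraries, p = 0.0078, the smallest this test can give with 8 libraries, and p = 0.0078 after Benjamini-Hochberg adjustment over 7 comparisons of window classes). This test, here and below, measures agreement between libraries that share the same windows, and not the spread over windows or genes. Without Holstein 1 and Angus 3 together the difference was 0.343 CPM. The median window showed the same order, with 0.452 CPM for coding and 0.314 CPM for intron windows. On average 29.5% of coding windows reached 1 CPM in a library against 12.8% of intron windows, and 3.00% of coding windows against 0.665% of intron windows belonged to the 1% of chromosome 1 to 29 windows with the most reads.

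The ends of the same genes bracketed the internal coding windows. First windows, which hold the start of the gene and usually its promoter, had a mean of 0.738 ± 0.132 CPM (n = 8 libraries, 11267 windows) and were lower than internal coding windows in each library, by 0.312 CPM on average (exact sign-flip permutation test, p = 0.0078) and by 0.0905 CPM between the medians. Last windows, which hold the 3′ end, had 1.2 ± 0.218 CPM and were higher than internal coding windows in each library, by 0.148 CPM (exact sign-flip permutation test, p = 0.0078). That second difference depended on how genes were weighted: with every gene given the same weight, coding minus last was -0.00929 CPM and below 0 in 6 of 8 libraries (exact sign-flip permutation test, p = 0.234). Windows between genes had a mean of 1.06 CPM, about that of internal coding windows, but a median of only 0.266 CPM.

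**Figure D1:**
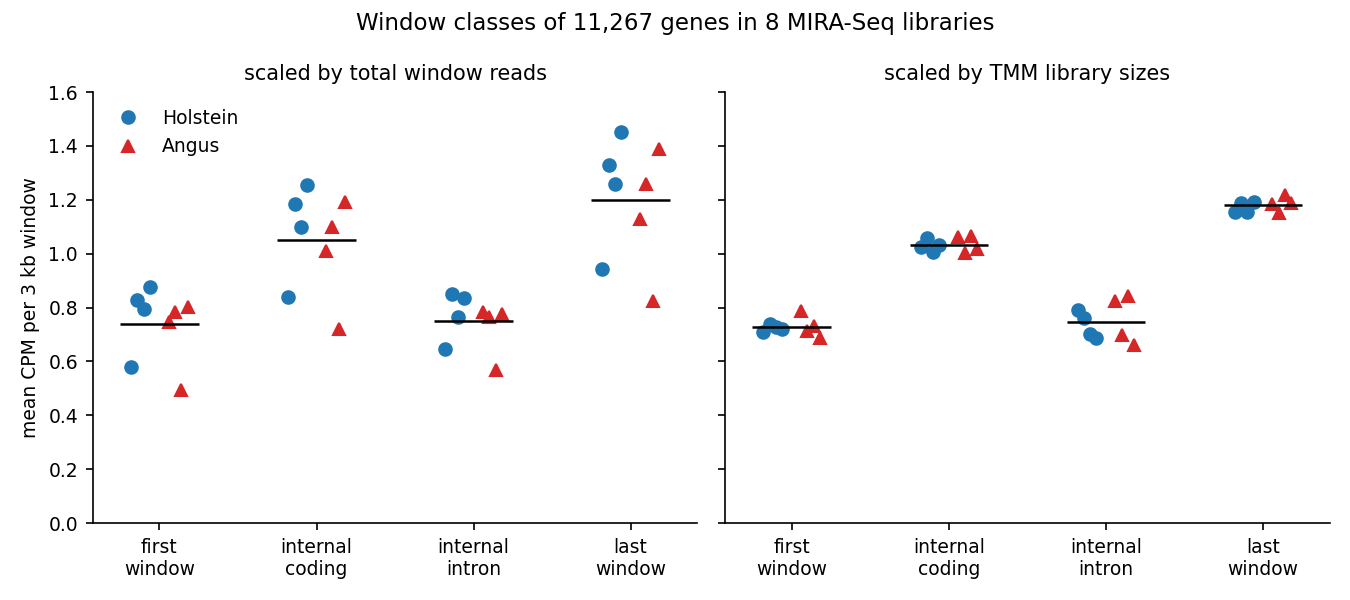
Mean CPM per 3 kb window (vertical axis) in the first, internal coding, internal intron and last windows of the same 11267 genes, with 1 point per library (circles Holstein, triangles Angus) and a bar at the mean of the 8 libraries, scaled by total window reads (left) and by TMM library sizes (right). The coding windows range from 0.720 to 1.25 CPM on the left and from 1.00 to 1.06 CPM on the right, where they lie above all intron points.

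Most of the spread between libraries in the level of the coding windows followed the library size used. When totals were replaced by the effective library sizes of TMM (trimmed mean of M-values, which scales libraries so that most windows agree), the coding mean was 1.03 ± 0.0249 CPM over the 8 libraries, and its coefficient of variation went from 17.6% to 2.40%. The same change took intron windows from 12.7% to 9.05%. The TMM factors were estimated on the 115360 windows with 1 CPM or more in at least 4 libraries. These took in 30.7% of coding and 13.1% of intron windows, so the closer agreement of coding windows can be partly built in. Breeds did not differ by more than this spread on either scale. Holstein and Angus had 1.09 ± 0.182 and 1.01 ± 0.204 CPM (n = 4 each) by totals, and 1.03 ± 0.0215 and 1.04 ± 0.0309 CPM by TMM.

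The difference between coding and intron windows was also present inside single genes. In 9982 genes that had both classes, the mean of the gene means was 1.12 CPM for coding and 0.778 CPM for intron windows, a difference of 0.340 ± 0.0685 CPM that was positive in all 8 libraries (exact sign-flip permutation test, p = 0.0078). The median of the difference over genes was 0.120 CPM. Coding windows had the higher mean in 6516 of these genes (65.3%). In 48.2% of the genes this was so in every one of the 8 libraries, and in 19.1% it was so in none. Among 6342 genes with at least 3 windows of each class the share was 63.6%.

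The number of coding exons in a window was tied to its level. It was estimated from the step in CDS number to the next coding window of the gene, which could be done for 74299 windows. Windows with 1 coding exon (47185) had a mean of 0.827 ± 0.152 CPM, and the mean was 1.10 ± 0.192 with 2 exons, 1.52 ± 0.270 with 3, 2.15 ± 0.373 with 4, 3.1 ± 0.538 with 5 to 9 and 4.03 ± 0.739 with 10 or more (51 windows; SD, n = 8 libraries throughout). Windows with 5 or more exons (1920) had 3.12 CPM, which was 2.29 ± 0.422 CPM above windows with 1 exon and 3.1 to 4.29 times their level in the single libraries (exact sign-flip permutation test, p = 0.0078). Of the windows with 5 or more exons, 77.8% reached 1 CPM in a library on average (70.4% in the lowest library), against 23.2% of those with 1 exon (14.7% in the lowest). The order held within each class of gene length, but the difference was 2.04 CPM in genes of 5 to 9 windows, 2.34 in those of 10 to 19, 2.57 in those of 20 to 49, and 0.566 and 0.694 in those of 50 to 99 and 100 or more windows, where 69 and 8 windows held 5 or more exons. A window whose only coding exon ran on into the next window, and which was thus coding up to its edge, had 1.03 ± 0.183 CPM (1550 windows), against 0.820 ± 0.151 CPM where the exon ended inside the window (45635).

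The position of the exon in the transcript, read from the CDS number, was also tied to the level, by a difference whose size and direction depended on how windows were taken. The mean was 0.981 ± 0.175 CPM for CDS number 1, 0.924 ± 0.159 for 2 and 0.947 ± 0.169 for 3, then 1.03 ± 0.183 for 6 to 10, 1.18 ± 0.207 for 11 to 20, 1.18 ± 0.207 for 21 to 40 and 1.11 ± 0.190 for 41 or more. Windows with CDS number 11 or more (26287) were above those with 1 or 2 (10835) by 0.233 ± 0.0519 CPM, in 8 of 8 libraries (exact sign-flip permutation test, p = 0.0078). It was 0.517 CPM with each gene given the same weight and 0.115 CPM without the 1% of windows with the most reads. The leftmost exon of a minus-strand gene has the highest number in its window, and with the lowest number estimated on both strands the difference was 0.175 CPM (an alternative chosen after the data were seen). The direction turned when the number of exons was held at 1. In windows with a single coding exon the mean was 0.834 CPM for CDS number 11 or more and 0.855 CPM for 1 or 2, a difference of -0.0208 CPM that was below 0 in 8 of 8 libraries (exact sign-flip permutation test, p = 0.0078), an alternative that was chosen after the data were seen. The medians of the windows with CDS number 11 or more and 1 or 2 differed by 0.0278 CPM (exact sign-flip permutation test, p = 0.0625). The difference was larger in short genes, with 1.37 CPM in genes of 5 to 9 windows and 0.0563 CPM in genes of 100 or more windows.

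Short genes had the higher coding windows. Mean CPM of internal coding windows was 1.5 ± 0.256 in genes of 5 to 9 windows (12216 windows), 1.18 ± 0.207 in genes of 10 to 19, 0.989 ± 0.176 in genes of 20 to 49, 0.732 ± 0.139 in genes of 50 to 99 and 0.714 ± 0.131 in genes of 100 or more (8086 windows). Genes of 50 or more windows were below genes of 5 to 9 windows by 0.772 ± 0.136 CPM, in 8 of 8 libraries (exact sign-flip permutation test, p = 0.0078). Intron windows of the same length classes had means of 0.711 to 0.787 CPM and no such slope in these means, with all intron windows counted. Among windows with a single coding exon the slope remained, from 1.07 ± 0.192 CPM in the shortest to 0.669 ± 0.125 CPM in the longest genes. At the edge of the rule, the inner coding windows of genes with exactly 4 windows, which the rule left out, had 1.64 ± 0.275 CPM (2205 windows), and those of genes with exactly 5 windows had 1.66 ± 0.269 CPM (2537 windows). In genes of 100 or more windows the intron mean (0.787 CPM) was above the coding mean (0.714 CPM), while the medians stood the other way, at 0.266 and 0.339 CPM. In genes of 50 or more windows the intron mean was 0.766 CPM with all intron windows and 0.552 CPM without those above a mean of 100 CPM, against 0.725 CPM for coding windows. Over all gene lengths the intron mean without those windows was 0.597 CPM, so by this measure long genes were lower in intron windows too.

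**Figure D2:**
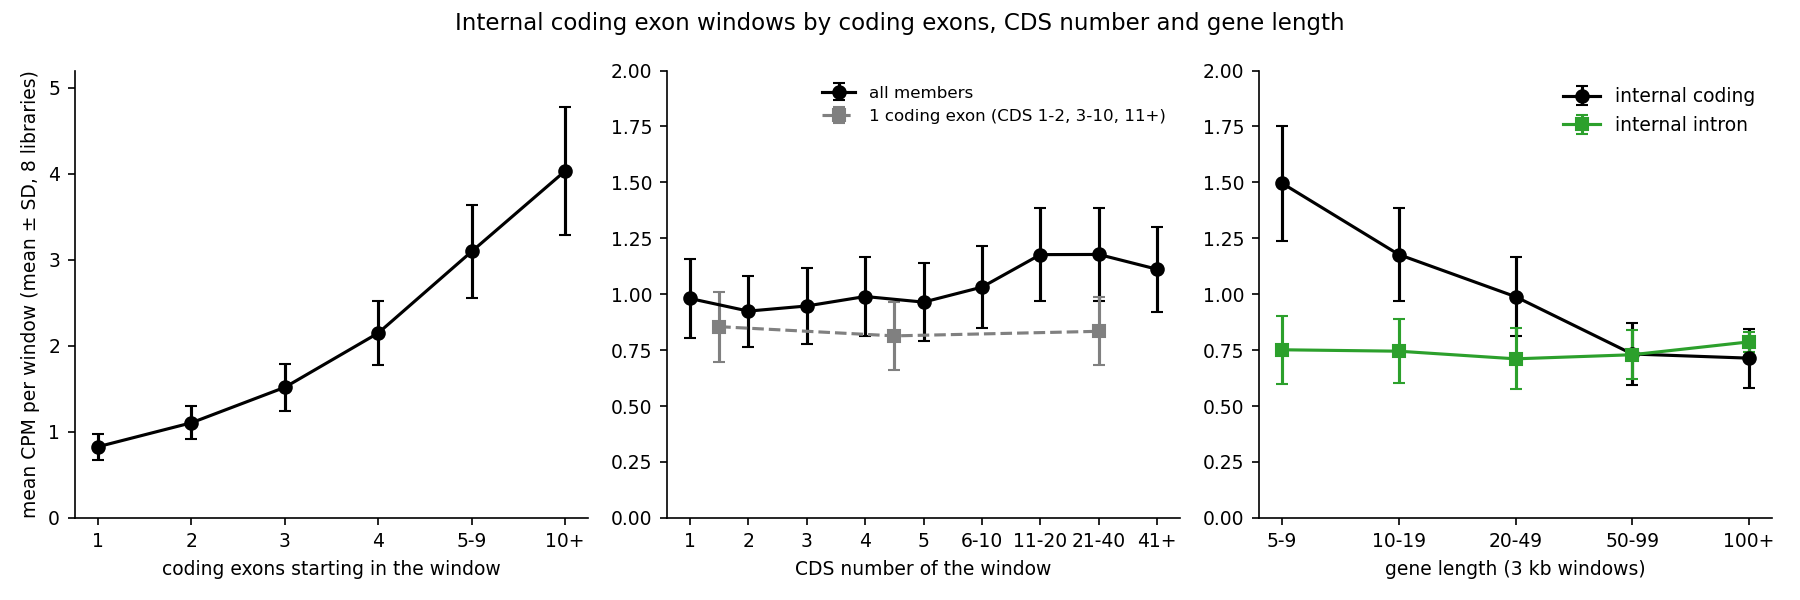
Mean CPM per window (vertical axis, mean ± SD over 8 libraries) of internal coding windows by the number of coding exons starting in the window (left), by CDS number (centre, with windows of 1 coding exon as grey squares) and by gene length in 3 kb windows (right, with intron windows in green). The mean goes from 0.827 to 4.03 CPM with exon number, stays between 0.924 and 1.18 CPM across CDS numbers, and goes from 1.5 to 0.714 CPM with gene length. The intron mean, with all intron windows counted, stays between 0.711 and 0.787 CPM.

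Along the gene, the level of coding windows was highest near the 3′ end. Counted from the last window, coding windows had 1.54 ± 0.269 CPM in the adjoining window, 1.40 ± 0.246 in the next, 1.09 ± 0.192 at 5 to 9 windows, 0.843 ± 0.156 at 10 to 19, and 0.578 ± 0.113 at 50 or more. Intron windows at the same distances had means of 0.710 to 0.807 CPM with no trend in these means, all intron windows counted. Counted from the first window, coding windows had 1.05 ± 0.173 CPM in the adjoining window, 1.22 ± 0.217 in the next and 1.34 ± 0.235 in the one after, and then 0.901 ± 0.164 at 20 to 49 and 0.788 ± 0.145 at 50 or more. Long genes alone supply the windows that are far from an end, so distance and gene length are shared between these values. The strand of the gene made no difference (1.05 CPM for both the 40130 windows of plus-strand and the 36809 of minus-strand genes).

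**Figure D3:**
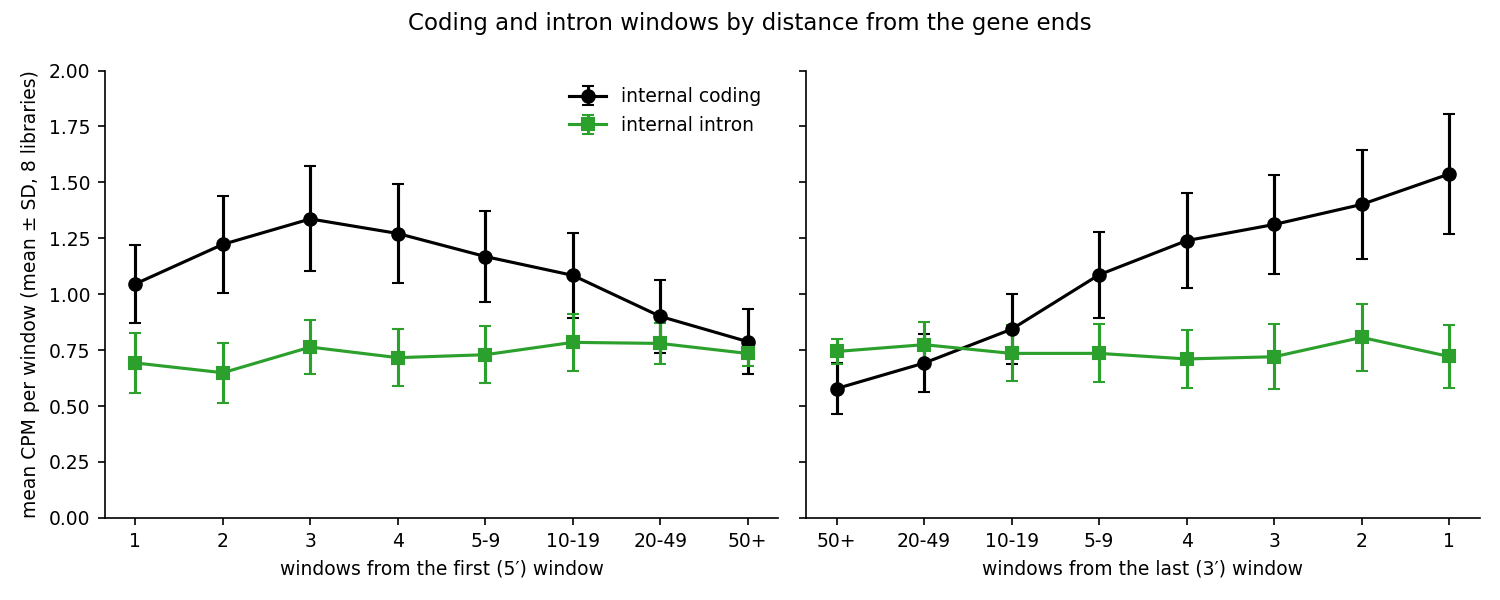
Mean CPM per window (vertical axis, mean ± SD over 8 libraries) of internal coding (black) and intron (green) windows by the number of windows from the first window (left) and from the last window (right) of the gene. Coding windows go from 0.578 CPM at 50 or more windows to 1.54 CPM beside the last window, and intron windows stay between 0.649 and 0.807 CPM over both panels.

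Chromosomes differed in the level of their coding windows. Chromosome 25 had the highest mean, 2.20 ± 0.405 CPM (1838 windows, n = 8 libraries), followed by chromosomes 29 (1.66 ± 0.299), 22 (1.59 ± 0.281) and 18 (1.53 ± 0.264). Chromosome 10 had the lowest, 0.642 ± 0.127 CPM (3725 windows), followed by chromosome 9 (0.725 ± 0.135). Coding means were above intron means on 27 of the 29 chromosomes. The exceptions were chromosome 27, where the intron mean was 7.53 CPM against 1.03 CPM for coding windows, and chromosome 2, where both were at 0.788 and 0.789 CPM. Internal coding windows of the X chromosome, which the rule left out, had 0.474 ± 0.0874 CPM (2703 windows).

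A few single windows carried very many reads. The 10 coding windows with the most reads held 1.72% of all reads in coding windows, and the top 1% of windows held 10.4%, against 35.3% in intron windows. Only 4 coding windows had a mean above 100 CPM, against 153 intron windows, of which the highest, in FSIP2, had 2125 CPM. The highest coding window lay in WDR60, which encodes a subunit of the dynein motor of cilia (chromosome 4, 120358205 to 120361204, CDS number 16). It had 559, 595, 486 and 521 CPM in Holstein 1 to 4, against 441, 399.9, 293 and 725 CPM for Angus 1 to 4, so that the breeds overlapped. In this window 57.1% to 60.6% of the reads lay over the deepest single position. The next windows were in ATP11B, a phospholipid flippase (chromosome 1, 84804001 to 84807000, 281 ± 98.1 CPM, n = 8), in LOC523153 on chromosome 2 (180 ± 55.2 CPM) and in LOC100848527 on chromosome 1 (128.4 ± 49.2 CPM). MEGF11, which encodes a membrane protein with EGF-like repeats (48.2 ± 14.4 CPM), LOC100295316 (43.2 ± 17.2 CPM) and SKIV2L2, an RNA helicase of the nuclear exosome (40.9 ± 7.55 CPM), were also among the 8 highest. Breeds overlapped in each of these named windows, and the adjusted p-values of the breed test in edgeR were 1.00 after rounding. Without the 4 coding and 153 intron windows above 100 CPM, the coding mean was 1.04 CPM and the intron mean was 0.597 CPM, an increase of the difference to 0.438 CPM (an alternative chosen after the data were seen).

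The genes with the most internal coding windows were large, exon-rich genes and most of them were low. SYNE1, which encodes the nuclear-envelope protein nesprin-1, had 95 windows with a median of 0.361 CPM. TTN, which encodes the sarcomere spring protein titin, had 81 with a median of 0.568 CPM. RYR2, the calcium release channel of heart muscle, had 84 with a median of 0.155 CPM. HMCN1, the matrix protein hemicentin-1, had 70 with a median of 0.238 CPM, and LRP1B, a lipoprotein receptor family member, had 80 with a median of 0.0861 CPM. The mean over the windows of TTN was above the mean of its 10 intron windows in all 8 libraries (0.786 against 0.220 CPM), whereas RYR2 had 0.211 CPM in coding and 0.204 CPM in intron windows. Within TTN the windows ranged from 0.00788 CPM (CDS number 169) to 4.26 ± 1.16 CPM (CDS number 309, near the 3′ end).

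Genes differed far more than libraries did. In the 2382 genes with 10 or more internal coding windows, the median over a gene's windows ran from 0.0316 to 8.12 CPM, with the middle 80% of genes between 0.127 and 1.98 CPM. The highest were PI4KA, the kinase that makes phosphatidylinositol 4-phosphate at the plasma membrane (8.12 CPM over 11 windows), GAK, a clathrin-coat kinase (7.87 CPM), DYNC1H1, the heavy chain of cytoplasmic dynein (7.78 CPM over 18 windows), CABIN1, a calcineurin-binding protein (7.15 CPM), MCF2L, a guanine nucleotide exchange factor (6.55 CPM), and LOC534755 (6.47 CPM). In DYNC1H1 the mean per library was 6.11, 7.13, 7.03 and 7.96 CPM in Holstein 1 to 4, against 5.74, 6.99, 5.47 and 9.18 CPM for Angus 1 to 4, so the breeds overlapped, and the 2 intron windows of the gene had 1.05 CPM. In MCF2L the intron windows were nearly as high as the coding windows (5.87 against 6.31 CPM). The lowest medians were in LOC100337165 (0.0316 CPM), SYCP2, a protein of the meiotic synaptonemal complex (0.0465 CPM), STRN3, a scaffold protein of the striatin family (0.0577 CPM), ZNF280D, a zinc-finger protein (0.0596 CPM), CCDC73 (0.0602 CPM) and NFAT5, the transcription factor of the response to osmotic stress (0.0612 CPM). In SYCP2, STRN3, ZNF280D, CCDC73 and NFAT5, coding windows were below the intron windows of the same gene in all 8 libraries, for example 0.0759 against 0.251 CPM in STRN3. All of these genes were picked for their level, which is given as a description.

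The same holds for the genes at the ends of the coding minus intron difference. The largest differences were in WDR60, LOC523153 and ATP11B, each through the single high window named above, and in LOC786966 (11.2 CPM in 8 coding windows against 0.495 CPM in 3 intron windows) and LOC504986 (9.83 against 1.36 CPM), where the lowest coding windows had 3.22 and 4.52 CPM. The opposite end was made up of genes with high intron windows. SLC9A10, a sodium-proton exchanger family member, had 0.176 CPM in 21 coding windows, and the difference from its 29 intron windows was -99.8 CPM. FSIP2, a sperm fibrous sheath interacting protein, had 60.9 CPM in intron and 0.223 CPM in coding windows. ENPP3, BTNL9 and NAA15 had 33.5, 30.8 and 22.6 CPM in intron windows against 1.63, 1.09 and 0.182 CPM in coding windows. The intron medians of FSIP2, ENPP3, BTNL9 and NAA15 were only 0.156, 0.237, 0.423 and 0.317 CPM, so a minority of windows made these means. In SLC9A10 the intron median was 116 CPM. In these 5 genes the coding windows had the lower mean in all 8 libraries.

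Lists of genes with known roles differed in the level of their coding windows. Housekeeping genes, which nearly all cells use, had the highest mean, 2.79 ± 0.473 CPM (SD, n = 8 libraries) over 234 windows in 16 genes, with a median window of 2.13 CPM against 0.453 CPM for all internal coding windows. Genes for DNA methylation enzymes and readers followed with 1.69 ± 0.312 CPM (53 windows), then genes of epithelial junctions (1.34 ± 0.250 CPM, 163 windows), of neurons (1.27 ± 0.205 CPM, 336 windows) and of LPS recognition and NF-kappa-B signalling (1.11 ± 0.188 CPM, 102 windows). Muscle genes had 0.850 ± 0.149 CPM (498 windows) and matrix genes, whose products dermal fibroblasts make in large amounts, had the lowest mean, 0.710 ± 0.132 CPM (263 windows in 17 genes). Each list mixed high and low genes. Among housekeeping genes, DYNC1H1 and the chromatin cofactor gene TRRAP had medians of 7.78 and 4.77 CPM, while the splicing factor gene SF3B1 and the nuclear export receptor gene XPO1 had 0.152 and 0.0733 CPM. Among LPS genes, IKBKB and TAB1 had 4.66 and 2.86 CPM, and CHUK, which encodes the other catalytic subunit of the kinase that IKBKB belongs to, had 0.118 CPM, with TAB2 at 0.130 CPM. The neuronal genes BSN and SHANK2 had 5.48 and 4.50 CPM, against 0.147 CPM in RELN and 0.0976 CPM in SCN1A. MYBPC3 and CACNA1S were the highest muscle genes (4.07 and 3.21 CPM), and RYR2 and XIRP2 the lowest (0.155 and 0.125 CPM). PKP1 and EVPL headed the epithelial list (3.93 and 3.02 CPM), and TP63 and DSG1 closed it (0.242 and 0.16 CPM). In the list of DNA methylation genes, MBD1 and UHRF1 had 2.93 and 2.80 CPM, and TDG and UHRF2 had 0.493 and 0.109 CPM.

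The lists also differed in coding exons per window. Housekeeping genes, the highest list, had a mean of 3.00 per window and DNA methylation genes had 2.10, against 1.61 over all internal coding windows. Matrix and muscle genes had 2.40 and 2.34, and their median windows were at 0.394 and 0.390 CPM, below the 0.453 CPM of all internal coding windows. COL1A1, the chain of type I collagen that fibroblasts secrete most, had 4 internal coding windows with 9, 14, 8 and 12 coding exons and means of 0.196 ± 0.0860, 0.477 ± 0.199, 0.457 ± 0.217 and 0.466 ± 0.198 CPM (n = 8). Over all windows with 5 or more exons the mean was 3.12 CPM (COL1A1 was chosen after its values were seen). COL3A1 and POSTN, further secreted matrix genes, had medians of 0.0864 and 0.0761 CPM over 10 windows each. COL6A2 and COL6A1, which encode chains of type VI collagen, stood at the other end of the list with 3.12 and 2.09 CPM. No expression values were used here, so the level was not compared with transcription.

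**Figure D4:**
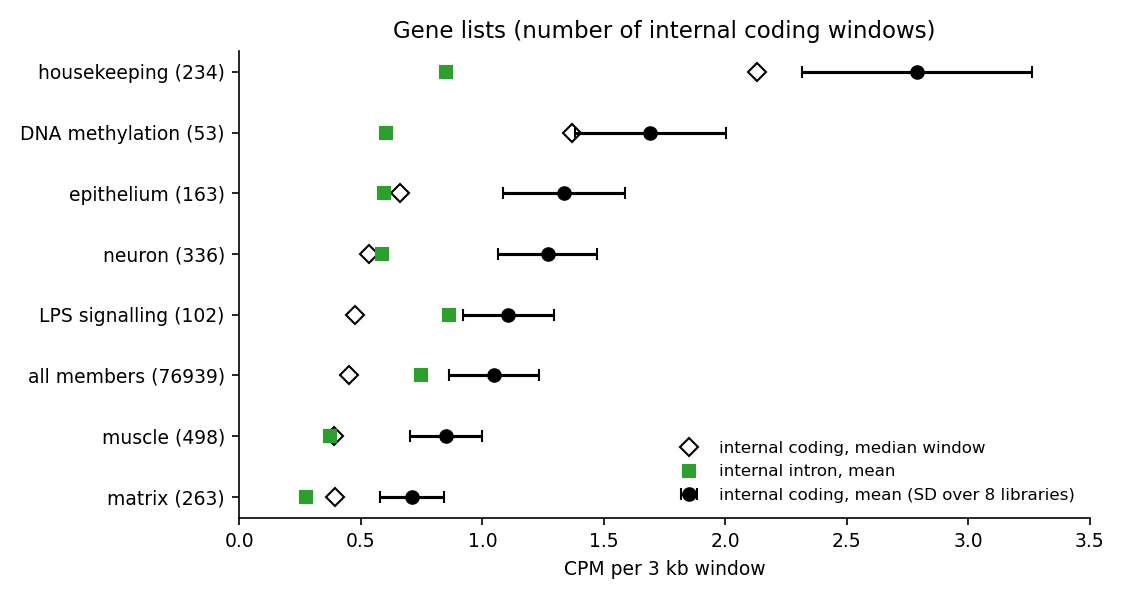
CPM per window (horizontal axis) in 7 gene lists and in all internal coding windows, with the number of coding windows in brackets, the mean ± SD over 8 libraries as filled circles, the median window as open diamonds and the mean of intron windows as green squares. Coding means run from 0.710 CPM in matrix genes to 2.79 CPM in housekeeping genes, and each lies above the intron mean of its list.

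The deposited depth columns allowed a check on how reads were spread inside a window. At 20 to 29 reads, the deepest position was covered 6.22 ± 0.540 times in coding windows and 6.02 ± 0.526 times in intron windows, higher in coding windows in 8 of 8 libraries (exact sign-flip permutation test, p = 0.0078, not adjusted). The mean number of reads in these windows was also slightly higher, 24.1 in coding and 23.8 in intron windows. Whether windows with at least 50% of their reads over the deepest position were more frequent among coding windows depended on the read number. At 10 to 14 reads they made up 10.9% of coding and 10.3% of intron windows. They were more frequent in coding windows in 6 of 8 libraries (exact sign-flip permutation test, p = 0.0859, not adjusted). At 20 to 29 reads they made up 2.06% of coding and 1.84% of intron windows, higher in 7 of 8 libraries (exact sign-flip permutation test, p = 0.0156, not adjusted). At 40 to 59 reads they made up 0.244% of coding and 0.444% of intron windows, higher in coding windows in 1 of 8 libraries (exact sign-flip permutation test, p = 0.0156, not adjusted).

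Holstein and Angus cultures were then compared window by window, which asks whether fibroblasts of these breeds differ in the reads captured at coding exons. In the fit over the whole table (edgeR likelihood-ratio test, FDR < 0.1 and a fold change of 2 or more), 23642 internal coding windows (30.7%) had enough reads to be tested, namely 1 CPM or more in at least 4 libraries, against 13.1% of intron windows. Of these, 7 were called differentially methylated regions (DMRs), or 0.0296%, against 0.231% of the 115360 windows tested in all, 0.0923% of those on chromosomes 1 to 29 and 0.0430% of intron windows. An unadjusted p under 0.05 was found in 3.39% of internal coding windows and 4.94% of all windows. By direction, 0.039% of all tested windows were higher in Holstein and 0.192% were higher in Angus. Without a fold change minimum the shares were 0.14% of coding windows and 0.368% of all windows, and the quasi-likelihood test of edgeR called 6 coding windows and 0.122% of all windows. The count of 7 rested on single libraries and on the tool: it was 3 without Angus 4, 12 without Angus 2, 14 without Angus 3 and 1 by DESeq2. The share called among coding windows was below that of all windows at each of these counts. The log2 FC had a median of -0.01 in coding windows, with 90% of windows between -0.29 and 0.30, and between -0.34 and 0.34 over all tested windows. The biological coefficient of variation was 11.9% in coding and 12.1% in intron windows at the median. In CPM, the breeds did not overlap in 1.08% of the tested coding windows, against 1.31% of all tested windows. None of the 7 gene lists had a called window, with 29 to 167 tested windows per list. At a share of 0.0296% no call was to be expected in so few windows. The called window in FBLN1, described below, lies in a matrix gene that is not on the matrix list. An unadjusted p under 0.05 in edgeR was found in 0 to 5 tested windows per list. As a share this ran from 0 of 58 in epithelial genes to 4 of 53 in matrix genes.

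Of the 7 windows, 4 were lower in Holstein and 3 were higher. The study also lists the windows in LOC100337044, FBLN1 and OSBPL6, in the same direction, but not those in ANKS1A, CCDC96, DMBT1 and EBF2. In 4 of the 7 the breeds did not overlap in CPM, against 59.2% of the DMRs of all windows. The windows in LOC100337044 and OSBPL6 passed the filter only through the libraries of the higher breed. For them the lack of overlap follows from the way they passed and is no separate support. The strongest was in LOC100337044 (chromosome 7, 18532846 to 18535845, minus strand, CDS number 9). It held 1, 16, 1 and 1 reads in Holstein 1 to 4, against 40, 38, 43 and 20 for Angus 1 to 4, or 0.0506, 0.692, 0.0378 and 0.0281 CPM against 1.40, 1.32, 1.44 and 1.07 CPM. Each Angus library was above each Holstein library, and Holstein 2 was the 1 Holstein library with more than a single read. The log2 FC (Holstein over Angus) was -2.99 with an SE of 0.43 (edgeR FDR = 7.47e-08). The window was called under all 10 other fits that gave it an FDR, with log2 FC from -5.19 to -2.47. DESeq2 gave it no FDR and made no call. It reached 1 CPM only in the 4 Angus libraries, so fits that left out 1 of them did not test it. Further windows towards the 5′ end of the gene had few reads in the same Holstein libraries. In those with CDS numbers 7, 6, 5 and 3, Holstein 1, 3 and 4 had no read at all, while Holstein 2 had 21, 2, 7 and 2 reads and Angus 1 had 24, 12, 14 and 9. Angus 2 and Angus 4 also had no read in the window with CDS number 6. All 9 other coding windows of the gene had the higher TMM-scaled mean in Angus, although none had enough reads to be tested. At the 3′ end of the gene the window with CDS number 13 held 8 to 19 reads per Holstein library and 9 to 18 per Angus library, and the breeds overlapped. Over the 10 windows of the gene, Holstein 1, 3 and 4 held 14, 19 and 26 reads, Holstein 2 held 93, and Angus 1 to 4 held 163, 152, 105 and 67.

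Of the windows that were higher in Holstein, the one in FBLN1 had the smallest SE. FBLN1 encodes fibulin-1, a protein of the extracellular matrix and basement membranes that fibroblasts make. The window (chromosome 5, 116626706 to 116629705, plus strand, CDS number 2) had 2.17, 3.33, 2.57 and 3.15 CPM in Holstein 1 to 4, against 1.22, 1.43, 1.07 and 1.23 CPM for Angus 1 to 4. All Holstein libraries were above all Angus libraries, with a log2 FC of 1.02 (SE 0.17, edgeR FDR = 2.21e-05). That value lies just past the fold change minimum, and without Holstein 2 or Angus 4 it was 0.96 or 0.94, so that the call was lost on size and not on FDR (0.00052 and 0.00039). Without a filter on low counts it was lost on FDR, just above the limit (edgeR FDR = 0.10, log2 FC 1.01). The other 10 coding windows of FBLN1 all had a log2 FC above 0, between 0.05 and 0.59, and none of them was called. The intron windows on both sides of the DMR had 1.73 ± 0.769 and 1.14 ± 0.216 CPM in Holstein, against 0.922 ± 0.360 and 0.563 ± 0.266 CPM for Angus.

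EBF2 encodes a transcription factor of mesenchymal and fat precursor cells. Its window (chromosome 8, 74320787 to 74323786, minus strand, CDS number 5, with 3 coding exons) had 1.52, 1.77, 1.14 and 2.34 CPM in Holstein 1 to 4, against 0.524, 1.01, 0.504 and 0.482 CPM for Angus 1 to 4. The breeds did not overlap, although Angus 2 came close to Holstein 3. The log2 FC was 1.25 (SE 0.26, edgeR FDR = 0.0015), and the call was kept in all 14 other fits that gave it an FDR. DESeq2 gave it none and made no call. The adjoining window towards the 5′ end of the gene, with CDS number 2, was split the same way without overlap (1.19 ± 0.344 CPM in Holstein, against 0.463 ± 0.300 CPM for Angus), although the breeds overlapped there by TMM-scaled CPM, and it had too few reads to be tested. The other 6 coding windows of EBF2 overlapped between breeds.

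The third window higher in Holstein was in OSBPL6, a member of the oxysterol-binding protein family of lipid carriers (chromosome 2, 18491734 to 18494733, minus strand, CDS number 16). It had 1.01, 1.04, 1.32 and 1.49 CPM in Holstein 1 to 4, against 0.559, 0.522, 0.168 and 0.482 CPM for Angus 1 to 4, without overlap. The log2 FC was 1.37 (SE 0.27, edgeR FDR = 0.00058). The window was called in all 10 other fits that gave it an FDR, and DESeq2 gave it none. It reached 1 CPM only in the 4 Holstein libraries, so fits that left out 1 of them did not test it. The 15 other coding windows of OSBPL6 overlapped between breeds, including the one with the most reads (CDS number 7, 1.57 ± 0.374 CPM in Holstein, against 1.63 ± 0.411 CPM for Angus).

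In the remaining 3 DMRs, all lower in Holstein, the breeds overlapped by CPM, and the call was lost without some single libraries and with some other tools or scalings. ANKS1A encodes an adaptor protein with ankyrin repeats. Its window (chromosome 23, 8944593 to 8947592, CDS number 11) had 0.809, 0.866, 2.16 and 1.44 CPM in Holstein 1 to 4, against 2.58, 1.91, 1.54 and 4.92 CPM for Angus 1 to 4, with a log2 FC of -1.12 (SE 0.25, edgeR FDR = 0.0063). Without Angus 4, the highest library, it was -0.84 (edgeR FDR = 0.125), and without Holstein 2 it was -0.94. DESeq2 gave a log2 FC of -1.14 with an FDR of 0.586. The 11 other coding windows of ANKS1A had a log2 FC between -0.16 and 0.16 where tested.

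CCDC96 encodes a coiled-coil protein. Its window (chromosome 6, 118317582 to 118320581, CDS number 6) had 0.809, 1.34, 0.341 and 1.52 CPM in Holstein 1 to 4, against 1.75, 2.02, 0.940 and 3.26 CPM for Angus 1 to 4, with a log2 FC of -1.05 (SE 0.27, edgeR FDR = 0.036). By TMM-scaled CPM these breeds did not overlap. The call was lost without Holstein 3 (log2 FC -0.74, edgeR FDR = 0.299) and without Angus 4 (-0.84, FDR = 0.304). Without Angus 1 the log2 FC stayed at -1.08 and the FDR was 0.123. With all libraries it was lost by the quasi-likelihood test (FDR = 0.214), with total counts (FDR = 0.325) and by DESeq2 (FDR = 1.00). The 3 other coding windows of the gene, with 3.22 to 7.86 CPM over the 8 libraries, overlapped between breeds.

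DMBT1 encodes a secreted scavenger receptor of mucosal defence. Its window (chromosome 26, 42792831 to 42795830, CDS number 12) had 2.68, 3.12, 4.69 and 4.14 CPM in Holstein 1 to 4, against 11.6, 6.29, 3.90 and 4.49 CPM for Angus 1 to 4, where Angus 1 was far above the other libraries. The log2 FC of -1.0 (SE 0.24, edgeR FDR = 0.023) lay at the fold change minimum and was -0.56 (edgeR FDR = 0.281) without Angus 1. The call was also lost without Holstein 1, 2 or 4 (log2 FC -0.98, -0.91 and -0.99), and it was kept in 2 of 8 alternatives with all libraries. Among those that lost it were the quasi-likelihood test (FDR = 0.137), total counts (FDR = 0.229), DESeq2 (FDR = 0.823) and the fit without a filter on low counts (FDR = 0.264). The adjoining coding window with CDS number 10 had 3.55 ± 0.992 CPM in Holstein, against 5.39 ± 1.63 CPM for Angus, with a log2 FC of -0.73 (edgeR FDR = 0.020) that was under the fold change minimum.

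**Figure D5:**
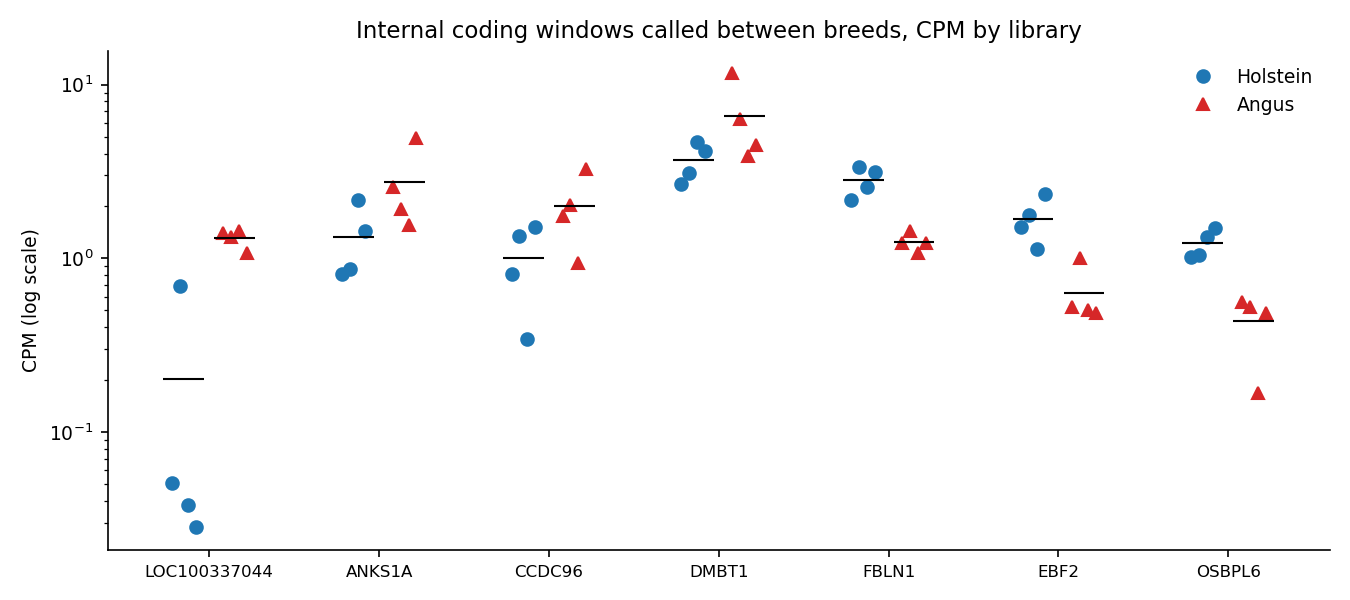
CPM by library (vertical axis, log scale) of the 7 internal coding windows called between breeds, with circles for Holstein, triangles for Angus and a bar at each mean of 4. Breeds do not overlap in LOC100337044, FBLN1, EBF2 and OSBPL6, Holstein 2 stands at 0.692 CPM above the other Holstein libraries in LOC100337044, and Angus 1 stands at 11.6 CPM in DMBT1.

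In 4 further genes that the study names, most internal coding windows had too few reads to be tested. For ADAMTS5 and NTRK2 the study's differentially methylated windows lie at the promoter. They are not internal coding windows, so the values given here do not bear on them. TLR4, the receptor for LPS, had 3 internal coding windows with means of 0.464 ± 0.230, 0.155 ± 0.0744 and 0.173 ± 0.113 CPM in Holstein, against 0.480 ± 0.239, 0.265 ± 0.234 and 0.16 ± 0.130 CPM for Angus, and the breeds overlapped in each. In ADAMTS5, a protease that cleaves matrix proteoglycans, the window with CDS number 4 had 2.42 ± 0.549 and 2.25 ± 0.826 CPM with a log2 FC of 0.00 (SE 0.18, edgeR FDR = 1.00). Its window with CDS number 6 had 0.874 ± 0.131 CPM in Holstein, against 0.593 ± 0.176 CPM for Angus, without overlap by totals but with overlap by TMM-scaled CPM, and had too few reads to be tested. The 10 coding windows of the neurotrophin receptor gene NTRK2 had means of 0.0217 to 0.341 CPM over the 8 libraries, and none was tested. In ASIP, the pigmentation gene agouti, the window with CDS number 3 had 0.556, 0.692, 0.530 and 0.788 CPM in Holstein 1 to 4, against 1.26, 1.95, 0.772 and 1.82 CPM for Angus 1 to 4. Holstein 4 and Angus 3 overlapped there by totals and the breeds did not by TMM-scaled CPM, and the window did not reach 1 CPM in enough libraries to be tested. The study itself lists this window as differentially methylated, with the higher level in Angus.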

How the data were processed

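MIRA-Seq libraries were made from 4 Holstein and 4 Angus cultures. Per the file headers, the authors used NextGENe 2.3.4 and deposited raw counts per consecutive 3 kb window of UMD 3.1 (CASAVA 1.7 is in the submitters' processing notes), with the highest coverage in each window as an unscaled signal. How duplicates and reads matching several places were treated is not given in the sources used here, and reads in repeats depend on it. Strand does not enter a count. A gene was a symbol on a chromosome (9 symbols stood on 2 chromosomes). Of 11259 symbols, 10069 (89.4%) were found in the RefSeq table.

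CPM used the sum of all window counts. Window classes were compared within libraries by exact two-sided sign-flip tests (smallest p 0.0078), which do not cover the spread over windows or genes. Breeds were compared over the whole table in R 4.3.3 with edgeR 4.0.16 (TMM, likelihood-ratio test, CPM of 1 or more in at least 4 of 8 libraries, Benjamini-Hochberg FDR < 0.1, fold change of 2 or more), following the study's design. The fit used here called more windows in all than the study reports. The SE is the absolute log2 FC over the square root of the likelihood-ratio statistic. The quasi-likelihood test and DESeq2 1.42.0 were alternatives. Steps were tested on simulated data. Cultures came from separate animals. Named genes were all DMRs, the 8 highest windows (1 is not reported here), the 5 genes with most members, the 6 highest and 6 lowest gene medians, the 5 largest and 5 smallest coding minus intron differences, the 2 highest and 2 lowest of each list, and 4 genes the study names. The members, lists and rules were chosen with earlier results of these data known. No genome of the files' build was used here, so no sequences are printed and CpG per window was not counted.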

Additional observations from a re-analysis of the deposited data

Results flagged for a closer look

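Of 76 groups of 4 libraries examined for a single library that stood apart (Dixon's criterion at the 95% level), 3 were past the limit, and chance passes about 1 in 20 groups. In the LOC100337044 window with CDS number 9, Holstein 2 was the highest of the 4 Holstein libraries at 0.692 CPM, against 0.0281 to 0.0506 CPM in the others. In the EBF2 window with CDS number 5, Angus 2 was the highest of the 4 Angus libraries at 1.01 CPM, against 0.482 to 0.524 CPM. The mean CPM of intron windows was lowest in Angus 3, at 0.569, and this is the library with the smallest share of reads on chromosomes 1 to 29.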

How the results depend on the processing

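The 7 class comparisons kept their direction and their side of the threshold under all alternatives, save for 3 values (exact sign-flip permutation tests over 8 libraries): coding against last windows with each gene weighing the same (-0.00929 CPM, p = 0.234), CDS number 11 or more against 1 or 2 by medians (0.0278 CPM, p = 0.0625), and the latter in windows with 1 coding exon (-0.0208 CPM, p = 0.0078, turned in direction). With 1 library left out, coding minus intron was 0.284 to 0.322 CPM, coding minus first 0.301 to 0.324, coding minus last -0.154 to -0.141, within genes 0.326 to 0.352, exon number 2.21 to 2.37, CDS number 0.221 to 0.244 and gene length -0.797 to -0.748.

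The 7 DMRs became 1 by DESeq2, 34 without a filter on low counts (76896 coding windows tested), 2 with 1 CPM required in all 8 libraries, 33 without the fold change minimum, 6 by the quasi-likelihood test, 9 with total counts and 10 with chromosomes 1 to 29 alone. With 1 library left out there were 3 (without Angus 4) to 14 (without Angus 3), and 12 without Angus 2. With the replicate number as a block there were again 7, and in that fit DMBT1 fell short of the fold change minimum. On average, same-numbered animals did not deviate together (mean correlation -0.0017, from -0.205 to 0.0942, against 0.0015 for other pairs). Of the 4 Holstein libraries, 2 correlated best with the Angus library of their own number. The labels give no pairing. Over all these fits DMBT1 was lost 10 times, CCDC96 6 times, and ANKS1A and FBLN1 3 times each. DESeq2 gave no FDR for the windows in LOC100337044, EBF2 and OSBPL6, and this is not counted here. The split by CpG content was not run for lack of a genome, no window named more than 1 gene, and a minimum of 10 windows per gene cannot be applied to the gene-length comparison. With 6 to 20 reads in a median coding window, most coding windows were below the filter and were not tested.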
